A study of Mus musculus with 12 samples.

Results

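The 10 genes described here encode enzymes that carry glucose to lactate. They are the rows of the deposited expression table with the symbols *Hk2*, *Gpi1*, *Pfkl*, *Aldoa*, *Tpi1*, *Gapdh*, *Pgk1*, *Eno1*, *Pkm* and *Ldha*, taken in the order of the pathway. All 10 were among the 24824 genes of the table and all 10 passed the filter on low values, as did 10615 genes in all. AML12 is a single immortalized line of mouse hepatocytes, labelled wild type, and the cells of every group were grown in DMEM/F12 with fetal bovine serum and insulin, transferrin and selenium. Group A stayed in this growth medium without further additions. Group B received 300 μM CuCl2 with 40 nM elesclomol, a copper ionophore (Cu/ES). Group C received the same Cu/ES together with 1000 μM taurocholic acid (TCA), a conjugated bile acid, and group D was given TCA at 1000 μM but no Cu/ES. Treatment lasted 24 h, and each of the 4 groups had 3 libraries of polyadenylated RNA. The comparisons asked how Cu/ES changed the enzyme mRNAs, with and without TCA, and whether TCA changed them differently when Cu/ES was present.

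Glycolysis breaks glucose down to pyruvate in the cytosol. An early phase spends ATP to trap and split the sugar, and a late phase returns ATP and NADH, after which lactate dehydrogenase can turn pyruvate into lactate and restore NAD+. Entry by hexokinase, phosphofructokinase and pyruvate kinase are its regulated steps, whereas the other enzymes work near equilibrium. Adult hepatocytes use liver forms of several of these enzymes, and many of the forms listed here are typical of growing cells and of most other tissues.

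The values are FPKM, the reads of a gene divided by its length and by the total of its library. Levels of different genes, and shares among them, thus depend on the gene lengths used. Library totals, recovered from the spacing of the values, lay between 29115011 and 34912748 reads in the libraries with Cu/ES and between 38298857 and 39782142 in those without. Nothing in the labels says that the 3 libraries of a group came from separate cultures, so p-values measure the spread between these libraries, which may be technical. Differences are given on the log2(FPKM + 1) scale from 1 limma fit of all 12 libraries, with the standard error (SE) and a p adjusted by Benjamini-Hochberg over the 10615 genes tested. Genes past both thresholds had an adjusted p below 0.05 as well as a log2 fold change above 1 or below -1. The median gene tested had a log2 fold change of -1.10 between groups B and A, so the distance from this median is given for each member. Of the 8 hepatocyte markers in the table, *Krt8* and *Krt18* passed the filter, whereas *Alb*, *Apob* and *Hnf4a*, which define hepatocytes, had a mean under 0.05 FPKM in every group. *Apoa1* and *Trf*, which did not pass the filter, went from 0.00863 and 0.00741 FPKM in group A to 1.86 and 0.718 in group B. The summed level of the 8 markers, most of it *Krt8* and *Krt18*, ran from 597 to 649.8 FPKM in A, 237 to 288 in B, 173 to 209.6 in C and 698 to 718 in D. The 9 markers of leukocytes, endothelium, mesenchyme and bile duct summed to between 321 and 428 FPKM in A, 102 and 125 in B, 128 and 133 in C and 193 and 279.7 in D, most of it *Krt19* of bile duct cells. *Krt7* was above 0 in 1 library only. Leukocyte *Cd68* went from 92.2 FPKM in group A to 27.2 in B, 31.2 in C and 33.0 in D. Endothelial *Pecam1* went the other way, from 0.214 FPKM in group A to 6.85 in B and 16.1 in C. Endothelial *Cdh5* was at 0.740 FPKM in A, 0.933 in B and 1.60 in C. Whether a shift in these markers played a part in the results was not tested.

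In untreated cells *Eno1*, *Pgk1* and *Tpi1* stood highest by FPKM. This order rests on the gene lengths recovered with the reads, which ran from 1469 bases for *Tpi1* to 7687 for *Pkm* and were 5342 for *Ldha*. Before division by length, *Pkm* had more reads than *Eno1* in library A1 (148343 and 118479). There *Ldha* also had more than *Pgk1* (78171 and 62481). Whether these lengths match the transcripts in the cells was not tested. *Eno1*, enolase 1, was at 1550 ± 70.6 FPKM (mean ± SD, n = 3 libraries), followed by *Pgk1* at 883 ± 70.5 and *Tpi1* at 762 ± 41.4. The libraries of *Pgk1* and *Tpi1* overlapped, as did those of *Ldha* at 381 ± 26.0 and *Gpi1* at 335 ± 23.1, and no other neighbours in the order did. *Pkm* stood between these pairs at 500.4 ± 25.9 FPKM. *Gapdh* was at 204 ± 11.1, *Pfkl* at 77.8 ± 3.50, *Hk2* at 38.8 ± 8.89 and *Aldoa* last at 3.22 ± 0.476 FPKM. Together the 10 genes made up 1.23 ± 0.0693% of all FPKM in A, 0.749 ± 0.0365% in B, 0.575 ± 0.0171% in C and 1.05 ± 0.0579% in D. The order of the means was the same in group D as in group A. In group B *Eno1*, *Pgk1*, *Pkm* and *Gapdh* led and *Tpi1* and *Pfkl* had moved down to the seventh and the last place, and in group C *Tpi1* came after *Hk2*, with overlapping libraries.

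**Figure D1:**
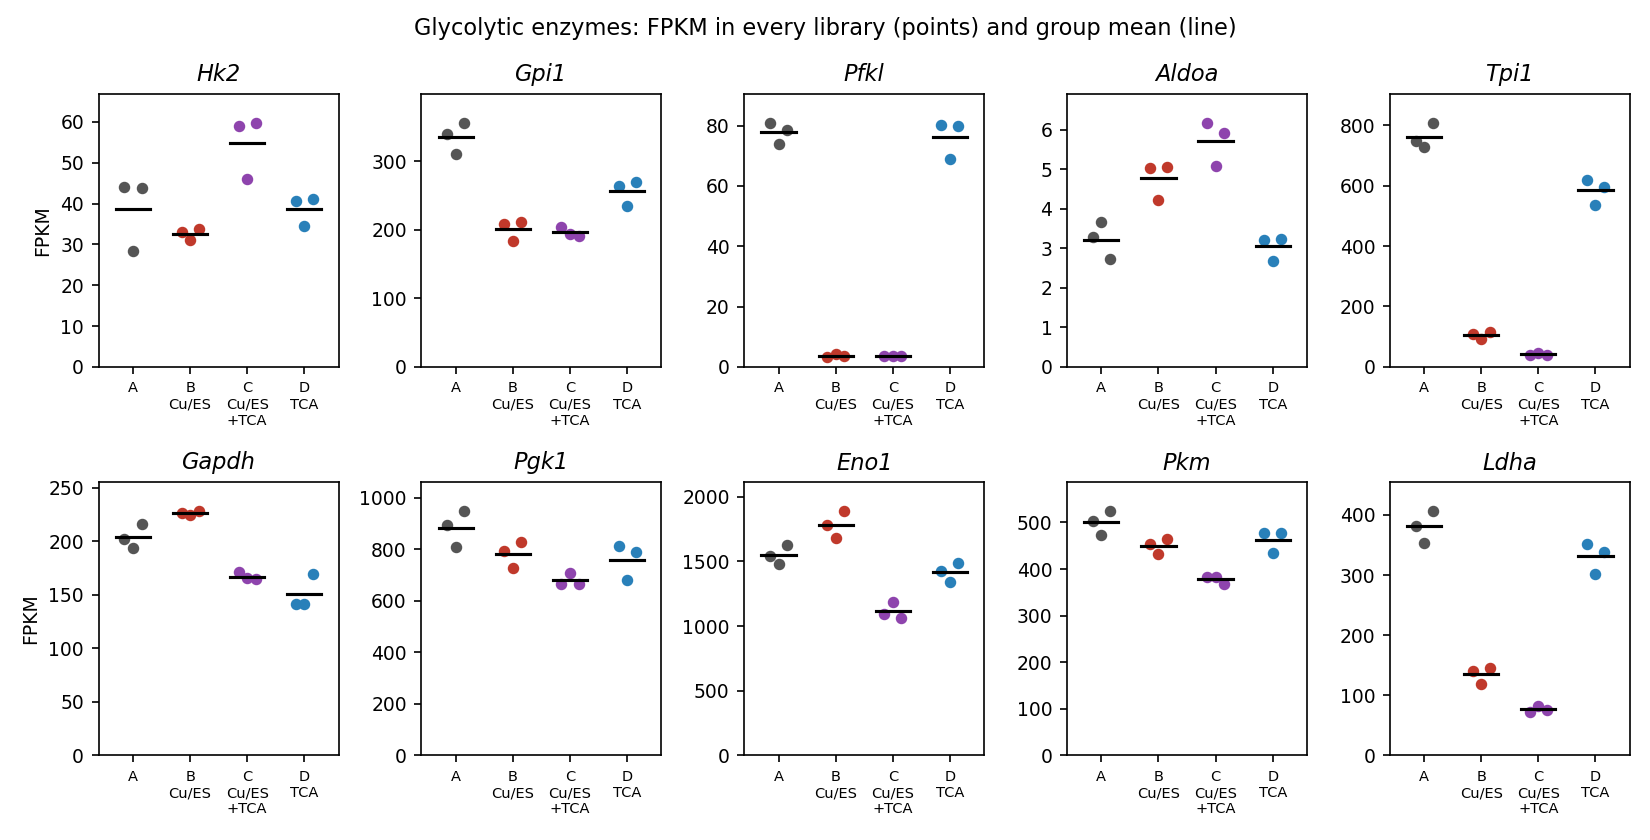
FPKM of the 10 enzymes (vertical axes from 0, a scale of its own for each gene) in the 3 libraries of each group, as points, with the group mean as a line. *Pfkl* lies between 3.37 and 4.14 FPKM in the 6 libraries that received Cu/ES and between 69.0 and 80.9 in the other 6, whereas *Pgk1*, *Pkm* and *Gapdh* stay within a narrower range.

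Some levels carry a doubt about which gene the reads belong to, since the sources used here do not give the strand setting, the annotation or the handling of reads with several matches. In the GENCODE annotation of GRCm38, 93 other genes, 89 of them pseudogenes, held a stretch of at least 200 bases at 95% identity or more with a *Gapdh* transcript. For *Eno1* there were 4 such genes, among them *Eno1b*, which stood at 21.9 FPKM in group A, and for *Aldoa* the annotation held 2 genes of the same symbol and 1 near-identical copy. *Ldha* had 5, *Pgk1* 4, *Pkm* 2, and *Tpi1* and *Gpi1* 1 each, whereas *Hk2* and *Pfkl* had 0. The levels of *Aldoa*, *Gapdh* and *Eno1* are uncertain for this reason, and those of *Ldha*, *Pgk1*, *Pkm*, *Tpi1* and *Gpi1* may be as well.

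Cu/ES lowered *Pfkl*, *Tpi1* and *Ldha* in group B vs. A, from the early, the middle and the last step of the pathway, and the other enzymes moved by less than 1 on the log2 scale. No member rose past both thresholds, by limma or by limma-voom on recovered reads, although 2 rose at an unadjusted p under 0.05. Past both thresholds 3 of 10 members were lower, against 53.0% of all genes tested, and 0 were higher, against 10.1%. With the adjusted p alone, 5 members were lower (72.0% of all genes tested) and 2 were higher (20.1%). The share of members that fell was thus below the share of all genes, and 7 of the 10 lay above the median gene. Among the members the median was -0.19 on the log2 scale, and over all genes it was -1.10. In bulk RNA, fewer cells of a type and less RNA per cell cannot be told apart.

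*Pfkl* encodes the liver-type subunit of phosphofructokinase, which commits the sugar to glycolysis. It was at 80.9, 74.0 and 78.6 FPKM in the group A libraries and at 3.37, 4.14 and 3.44 in those of group B. The mean was 21.3-fold lower, and the log2 fold change of -4.09 (SE 0.08, limma with Benjamini-Hochberg, adjusted p = 3.29e-14) differed by -2.99 from the median gene. No library of one group came near the other, and between 432 and 540 reads stood behind each group B value. *Tpi1*, triosephosphate isomerase, which interconverts the products of the aldolase step, was at 747, 729 and 808 FPKM in group A and at 109, 92.4 and 117 in group B. This mean was 7.19-fold lower (log2 fold change -2.84, SE 0.09, limma with Benjamini-Hochberg, adjusted p = 1.40e-12), and it differed by -1.74 from the median gene. *Ldha*, the muscle-type subunit of lactate dehydrogenase, fell 2.82-fold, from 382, 354 and 406 FPKM to 141, 119 and 146 (log2 fold change -1.49, SE 0.09, limma with Benjamini-Hochberg, adjusted p = 6.69e-10). It differed by -0.39 from the median gene, less than *Pfkl* and *Tpi1* did.

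The remaining enzymes of the early phase changed less. *Gpi1*, glucose-6-phosphate isomerase, was at 339, 311 and 356 FPKM in group A and at 208, 184 and 212 in group B, and it fell by 0.74 on the log2 scale (SE 0.08, limma with Benjamini-Hochberg, adjusted p = 3.49e-07). This fall was smaller than that of the median gene, by 0.37. *Hk2*, the inducible hexokinase that traps glucose in the cell, was at 44.0, 28.5 and 43.8 FPKM in group A and at 33.0, 31.0 and 33.7 in group B. Library 2 of group A was low, the groups overlapped, and the log2 fold change of -0.22 (SE 0.15) did not pass (adjusted p = 0.169 by limma with Benjamini-Hochberg). Without that library the log2 fold change of *Hk2* was -0.42 (adjusted p = 0.0031 by limma with Benjamini-Hochberg). *Aldoa*, an aldolase that splits fructose bisphosphate, rose from 3.28, 3.66 and 2.72 FPKM to 5.03, 4.22 and 5.05, with groups apart (log2 fold change 0.45, SE 0.11, limma with Benjamini-Hochberg, adjusted p = 1.07e-03). Between 196 and 294 reads stood behind each of these values.

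The enzymes from *Gapdh* to *Pkm*, which follow *Tpi1*, moved by 0.20 or less on the log2 scale. *Eno1*, which makes phosphoenolpyruvate, was at 1543, 1483 and 1623 FPKM in group A and at 1781, 1684 and 1887 in group B, a log2 fold change of 0.20 (SE 0.07, limma with Benjamini-Hochberg, adjusted p = 0.0131) with no overlap. *Pkm*, the non-liver pyruvate kinase, went from 504, 473 and 524 FPKM to 453, 432 and 464, a fall by 0.15 on the log2 scale (SE 0.06, limma with Benjamini-Hochberg, adjusted p = 0.0304). Every group B library of *Pkm* was below every group A library. *Gapdh*, the NADH-making dehydrogenase that is often used as a reference gene, was at 202, 194 and 216 FPKM in group A and at 226, 225 and 228 in group B (log2 fold change 0.15, SE 0.07, limma with Benjamini-Hochberg, adjusted p = 0.0638). *Pgk1*, the first enzyme to return ATP, was at 894, 808 and 947 FPKM and then at 794, 726 and 829.7 (log2 fold change -0.17, SE 0.08, limma with Benjamini-Hochberg, adjusted p = 0.0627). The groups overlapped for *Pgk1* and did not for *Gapdh*, and neither gene passed. The replicate number was also taken as a block, which pairs the libraries of all 4 groups. In that fit *Gapdh* (adjusted p = 0.05 after rounding), *Pgk1* (0.0458) and *Hk2* (0.0335) passed by limma with Benjamini-Hochberg. Calls this close to the threshold moved when 1 library was left out, all by limma with Benjamini-Hochberg. *Eno1* did not pass without library 2 of A or 3 of B (adjusted p = 0.0567 and 0.0607), and *Pkm* did not without library 1 or 3 of A or 1 or 2 of B (adjusted p from 0.0576 to 0.126). *Gapdh* passed without library 3 of A or of D (adjusted p = 0.0392 and 0.0272), and *Pgk1* without library 2 of A, 3 of B or 2 of D (adjusted p from 0.023 to 0.0437). Against the median gene *Hk2* stood higher by 0.88, *Pgk1* by 0.93, *Pkm* by 0.95, *Gapdh* by 1.25, *Eno1* by 1.30 and *Aldoa* by 1.55 on the log2 scale. Across the 10 members, 3 had all group B libraries above group A (20.5% of all genes tested) and 5 had all of them below (72.4%). Each of these 8 gave p = 0.1 in an exact two-sided permutation test, the smallest that 3 libraries against 3 allow.

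**Figure D2:**
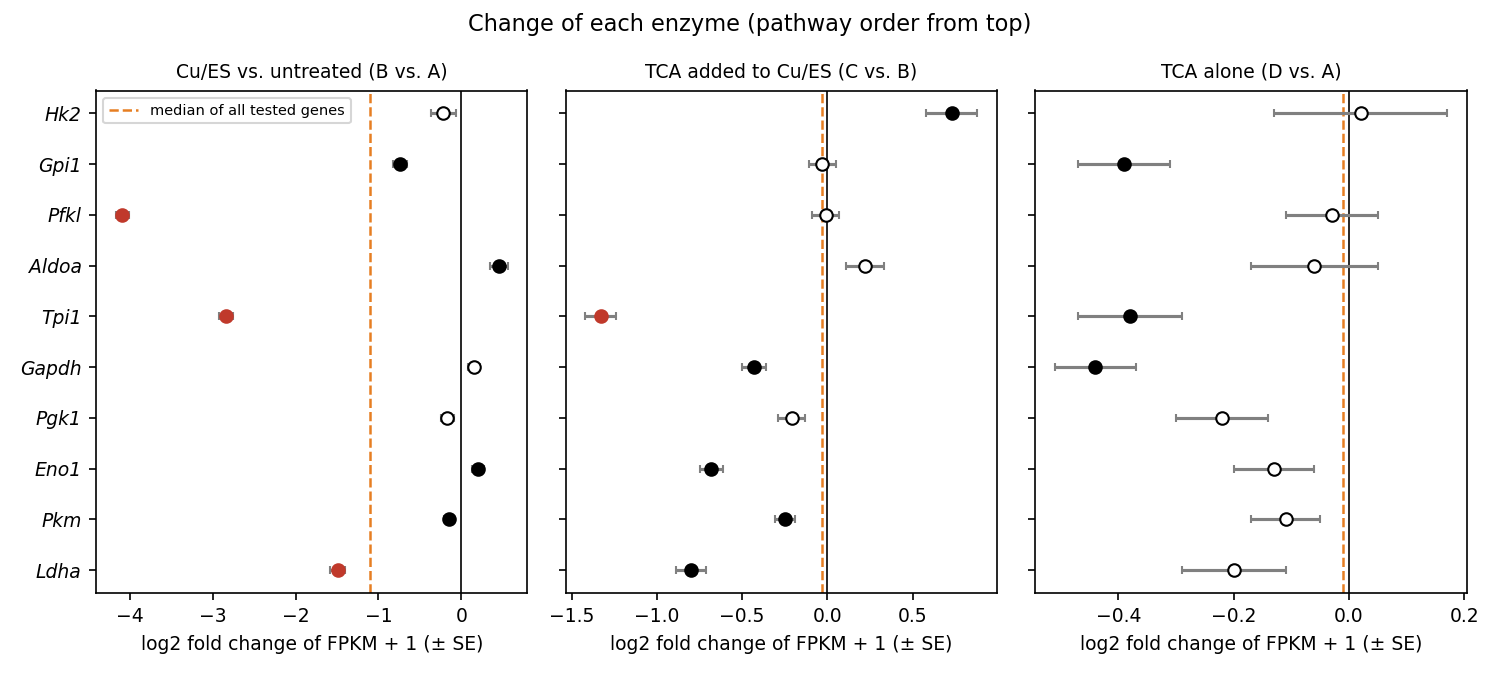
Log2 fold change of FPKM + 1 (horizontal axes, each panel with its own range; bars are SE of the limma fit of 12 libraries) for the 10 enzymes in pathway order. Red points passed both thresholds, filled black points the adjusted p alone and open points neither, and the dashed line is the median of all genes tested, at -1.10, -0.03 and -0.01. With Cu/ES *Pfkl*, *Tpi1* and *Ldha* lie left of the dashed line and the other 7 to its right.

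The direction of most members in group B vs. A depended on how libraries were scaled. Scaled by the median ratio of all genes, which moved the median log2 fold change by 1.07, to -0.03, *Hk2* (1.03), *Aldoa* (1.46), *Gapdh* (1.43), *Pgk1* (1.11), *Eno1* (1.49) and *Pkm* (1.13) were higher past both thresholds. Of all genes tested 26.0% were higher and 25.6% lower under this scaling. *Pfkl* (-2.92) and *Tpi1* (-1.56) were still lower past both thresholds. *Ldha* no longer passed (log2 fold change -0.21, limma with Benjamini-Hochberg, adjusted p = 0.0767), and *Gpi1* turned to 0.55. Scaled as TPM, which moved the median to -1.56, *Gpi1* joined *Pfkl*, *Tpi1* and *Ldha* past both thresholds, and *Gapdh* (-0.22) and *Eno1* (-0.17) turned lower. *Hk2* (-0.59) and *Pgk1* (-0.54) also fell as TPM (adjusted p = 2.92e-03 and 2.20e-06 by limma with Benjamini-Hochberg), and *Aldoa* no longer passed (0.18, adjusted p = 0.222). Among all genes the calls split into 1070 higher and 5622 lower as deposited, 2757 and 2722 under median ratios, and 847 and 6724 as TPM. *Pfkl* and *Tpi1* were thus lower past both thresholds under the 3 scalings. A scaling moves the genes of a library nearly alike, so it leaves the distance of a member from the median gene about the same.

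**Figure D3:**
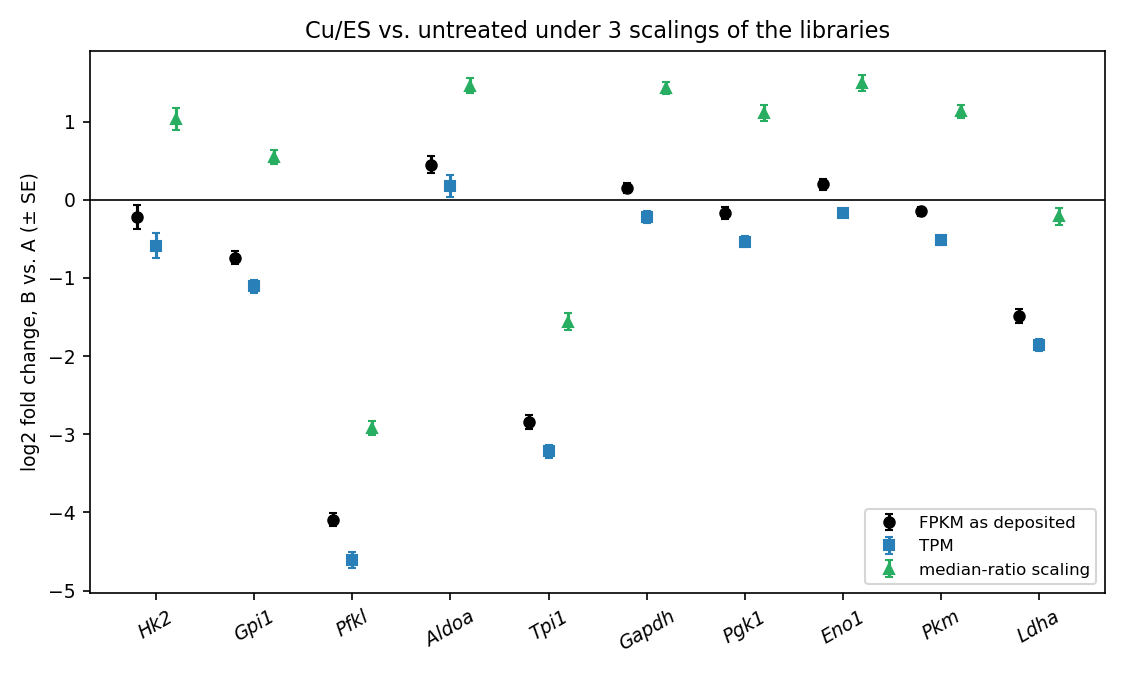
Log2 fold change of the 10 enzymes in group B vs. A (vertical axis, ± SE of the limma fit) under the deposited FPKM (circles), TPM (squares) and median-ratio scaling (triangles). *Pfkl* and *Tpi1* lie below 0 in each, whereas *Hk2*, *Gpi1*, *Pgk1* and *Pkm* lie above 0 under median ratios alone.

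Shares within a library do not depend on its scaling. Of the summed FPKM of the 10 enzymes, *Tpi1* made up 16.1 ± 0.300% without treatment and 2.84 ± 0.173% with Cu/ES (mean ± SD, n = 3). *Eno1* went from 32.7 ± 0.449% to 47.9 ± 0.356% and *Pgk1* from 18.6 ± 0.447% to 21.0 ± 0.234%. *Ldha* went from 8.03 ± 0.0862% to 3.62 ± 0.203%, and *Pfkl* from 1.65 ± 0.0698% to 0.0986 ± 0.0171%. None of these 5 shares overlapped between the libraries of groups A and B, so the balance between the enzymes differed whatever the scale. The sum itself was 4734 ± 275 FPKM in A, 3726 ± 213 in B, 2716 ± 92.0 in C and 4078 ± 268 in D.

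Promoter windows of 250 bases before the start, from RefSeq with the build GRCm38.p6, are shown for the 3 members that fell with Cu/ES, for *Pgk1*, which did not pass, and for *Hk2*, which rose when TCA was added. The deposited values were made on GRCm39, so these coordinates belong to the RefSeq build only. Capitals mark ACGTG on either strand, the core of the element bound by hypoxia-inducible factors, or GAANNTTC, a pair of inverted heat shock units.
*Pfkl* promoter, chr10:78009808-78010057, minus strand: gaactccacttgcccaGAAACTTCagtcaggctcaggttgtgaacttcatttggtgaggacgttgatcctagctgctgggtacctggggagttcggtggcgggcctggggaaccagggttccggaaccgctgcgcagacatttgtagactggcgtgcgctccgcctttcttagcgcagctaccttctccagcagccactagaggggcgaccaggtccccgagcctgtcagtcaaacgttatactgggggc
*Tpi1* promoter, chr6:124814159-124814408, minus strand: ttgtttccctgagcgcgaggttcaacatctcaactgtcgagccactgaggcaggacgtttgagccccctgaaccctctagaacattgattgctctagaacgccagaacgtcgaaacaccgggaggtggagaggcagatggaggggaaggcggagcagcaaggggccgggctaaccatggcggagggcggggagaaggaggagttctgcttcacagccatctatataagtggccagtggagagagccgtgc
*Ldha* promoter, chr7:46845554-46845803, plus strand: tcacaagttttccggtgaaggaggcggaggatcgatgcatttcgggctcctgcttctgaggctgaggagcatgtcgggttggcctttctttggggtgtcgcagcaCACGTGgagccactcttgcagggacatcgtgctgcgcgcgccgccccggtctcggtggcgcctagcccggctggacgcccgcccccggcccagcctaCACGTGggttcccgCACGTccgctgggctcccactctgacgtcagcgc
*Pgk1* promoter, chrX:106186850-106187099, plus strand: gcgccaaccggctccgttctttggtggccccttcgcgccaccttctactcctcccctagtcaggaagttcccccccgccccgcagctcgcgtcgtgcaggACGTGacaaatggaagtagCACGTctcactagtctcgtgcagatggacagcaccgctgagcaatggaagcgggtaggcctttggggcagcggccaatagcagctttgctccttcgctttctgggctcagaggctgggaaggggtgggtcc
*Hk2* promoter, chr6:82774455-82774704, minus strand: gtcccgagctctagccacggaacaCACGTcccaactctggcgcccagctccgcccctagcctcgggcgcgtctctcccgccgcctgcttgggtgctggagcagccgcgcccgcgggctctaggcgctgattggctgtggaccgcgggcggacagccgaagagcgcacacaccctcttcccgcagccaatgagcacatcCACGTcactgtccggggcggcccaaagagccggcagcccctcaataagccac

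*Ldha* had 2 windows, and the one shown held 5 matches to ACGTG, with first bases 145, 144, 48, 47 and 34 bases before the start, of which 4 came from the CACGTG palindromes that match on both strands, whereas the other window held 0. *Pgk1* held 2, at 150 and 131 bases before the start, and *Hk2* held 2, at 226 and 52. The *Pfkl* window held no ACGTG and 1 GAANNTTC, at 234 bases before the start, and the *Tpi1* window held neither. All 10 members matched the RefSeq table, with 16 windows in all, and 6 windows of 5 members held ACGTG: *Hk2*, *Aldoa*, *Pgk1*, *Pkm* and *Ldha*. Windows 2 and 3 of *Aldoa* overlap, and their matches, 126 and 202 bases before their starts, are the same site counted in both. Among the 32851 windows of all genes, 16.6% held ACGTG, 6.02% held CACGTG and 6.69% held GAANNTTC. The windows with ACGTG belonged to members that fell with Cu/ES and to members that did not, and a match describes letters in a window, not a bound site.

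Adding TCA to Cu/ES, group C vs. B, lowered *Tpi1* further and raised *Hk2*, and *Ldha* and *Eno1* fell as well, by less than 1 on the log2 scale. Past both thresholds 1 of 10 members was lower, *Tpi1*, against 1.16% of all genes tested, and 0 were higher, against 1.13%. For the count of 0, limma-voom also gave 0, and 1 member was higher at an unadjusted p under 0.05. With the adjusted p alone 5 were lower (23.6% of all genes tested) and 1 was higher (20.4%). The median log2 fold change was -0.23 for the members and -0.03 for all genes. This comparison shares group B with the one before, so the values of the pair are not independent.

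*Tpi1* went from the group B values above to 39.7, 46.3 and 38.6 FPKM, 2.55-fold lower (log2 fold change -1.33, SE 0.09, limma with Benjamini-Hochberg, adjusted p = 6.65e-07). All group C libraries were below all group B libraries, on 1696 to 2376 reads each. *Ldha* went to 72.4, 82.3 and 75.5 FPKM (log2 fold change -0.80, SE 0.09, limma with Benjamini-Hochberg, adjusted p = 1.37e-05), again with no overlap. *Eno1* went to 1092, 1183 and 1064 FPKM, a fall by 0.68 on the log2 scale (limma with Benjamini-Hochberg, adjusted p = 6.91e-06). This brought *Eno1* from above to below its untreated libraries. *Gapdh* fell to 171, 166 and 165 FPKM (log2 fold change -0.43) and *Pkm* to 383, 382 and 368 (log2 fold change -0.25), with limma adjusted p = 2.96e-04 and 4.90e-03 by Benjamini-Hochberg.

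*Hk2* was the member that rose, to 59.0, 46.0 and 59.8 FPKM (log2 fold change 0.73, SE 0.15, limma with Benjamini-Hochberg, adjusted p = 1.25e-03). Each of these libraries was above every group A and group B library. *Pfkl* was at 3.69, 3.53 and 3.62 FPKM, a log2 fold change of -0.01 (SE 0.08, limma with Benjamini-Hochberg, adjusted p = 0.955), so its low level in group B was not seen to move further. *Gpi1* was at 204, 194 and 191 FPKM (log2 fold change -0.03, limma with Benjamini-Hochberg, adjusted p = 0.764). *Pgk1*, at 664, 708 and 664 FPKM, and *Aldoa*, at 6.18, 5.09 and 5.91, had log2 fold changes of -0.21 and 0.22 and missed the threshold (adjusted p = 0.0596 and 0.11 by limma with Benjamini-Hochberg). Here 2 members had all group C libraries above group B (22.0% of all genes tested) and 6 had all below (27.2%). *Pgk1* passed without library 2 of B, C or D (adjusted p from 0.0378 to 0.0405) and *Aldoa* without library 2 of C (adjusted p = 0.045, limma with Benjamini-Hochberg). The scalings moved the median of all genes by 0.05 at most in this comparison, and the calls among all genes split into 120 higher and 123 lower as deposited, and 241 and 145 as TPM.

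TCA without Cu/ES, group D vs. A, moved no member by more than 0.44 on the log2 scale. Most changes were downward, with 9 of 10 log2 fold changes below 0 and 1 member above the median gene. Of all genes tested, 46.9% had a log2 fold change above 0. The median was -0.17 for the members and -0.01 for all genes. Past both thresholds 0 of 10 were higher (0.0659% of all genes tested) and 0 lower (0.151%), by limma as by limma-voom, with 0 higher and 5 lower at an unadjusted p under 0.05. With the adjusted p alone 3 fell (11.5%) and 0 rose (10.5%). *Gapdh* went to 141, 141 and 169 FPKM, a fall by 0.44 on the log2 scale (SE 0.07, limma with Benjamini-Hochberg, adjusted p = 1.13e-03). *Gpi1*, at 264, 235 and 269.5 FPKM, and *Tpi1*, at 618, 536 and 597, fell by 0.39 and 0.38 (adjusted p = 3.49e-03 and 0.0109 by limma with Benjamini-Hochberg). These 3 genes had no overlap with the untreated libraries, and they lay below them. *Ldha* was at 352, 301 and 339 FPKM, also with no overlap, and its log2 fold change of -0.20 did not pass (adjusted p = 0.121 by limma with Benjamini-Hochberg). *Pgk1* was at 812, 679 and 788 FPKM, *Eno1* at 1429, 1338 and 1484, and *Pkm* at 477, 434 and 477, with log2 fold changes from -0.22 to -0.11, none of which passed. *Pgk1* did pass without library 2 of A (adjusted p = 0.0436), as TPM (0.0389) and by limma-voom (0.0484), with Benjamini-Hochberg in each. *Pfkl*, at 80.3, 69.0 and 79.7 FPKM, *Aldoa*, at 3.22, 2.69 and 3.24, and *Hk2*, at 40.7, 34.4 and 41.2, overlapped with group A, and without its second library the log2 fold change of *Hk2* was -0.18 in place of 0.02. Across the 10, 4 had all group D libraries below group A (23.5% of all genes tested) and 0 had all above (20.7%).

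With TCA present in both groups, C vs. D, Cu/ES lowered the same 3 members past both thresholds (53.3% of all genes tested), and 0 were higher (11.2%). *Pfkl* was 21.1-fold lower, *Tpi1* 14.1-fold and *Ldha* 4.31-fold, with log2 fold changes of -4.06, -3.78 and -2.09 (SE 0.08, 0.09 and 0.09). Their adjusted p values from limma with Benjamini-Hochberg were 3.15e-14, 1.25e-13 and 1.52e-11. *Aldoa* and *Hk2* rose by the adjusted p, with log2 fold changes of 0.73 and 0.49, and they were the 2 members with every group C library above group D (20.4% of all genes tested), while 6 had every one below (71.6%). *Gpi1* (-0.38), *Eno1* (-0.35) and *Pkm* (-0.29) fell by the adjusted p, for a total of 6 lower (71.5%) and 2 higher (20.9%). *Gapdh* (0.16) and *Pgk1* (-0.16) did not pass (adjusted p = 0.0515 and 0.0825 by limma with Benjamini-Hochberg), but *Gapdh* did without library 3 of D and *Pgk1* without library 2 (adjusted p = 3.07e-03 and 0.0152). Under median-ratio scaling *Hk2*, *Aldoa*, *Gapdh* and *Pgk1* were higher past both thresholds and *Pfkl* and *Tpi1* lower. Of all genes tested, 25.9% were higher and 27.3% lower under this scaling.

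The effect of TCA differed with Cu/ES present in 5 of the 10 members. The interaction term, the log2 fold change of C vs. B minus that of D vs. A, was -0.94 for *Tpi1* (SE 0.13, limma with Benjamini-Hochberg, adjusted p = 1.81e-04), -0.60 for *Ldha* (adjusted p = 2.52e-03) and -0.55 for *Eno1* (adjusted p = 8.60e-04). In these 3 genes TCA went with a larger fall when Cu/ES was present. It was 0.70 for *Hk2* and 0.35 for *Gpi1* (adjusted p = 0.017 and 0.02 by limma with Benjamini-Hochberg). *Hk2* rose with TCA when Cu/ES was present and was not seen to move without it, and *Gpi1* fell with TCA in the absence of Cu/ES and was not seen to move in its presence. Neither *Hk2* nor *Gpi1* passed without a filter on low values (adjusted p = 0.0703 and 0.0503 by limma with Benjamini-Hochberg), nor did *Gpi1* without library 3 of A or 2 of B (adjusted p = 0.0558 and 0.0507). For *Pfkl*, *Aldoa*, *Gapdh*, *Pgk1* and *Pkm* the term ran from -0.14 to 0.28 and did not pass. By the adjusted p, 2 members were higher and 3 lower, near the shares of all genes tested (17.7% and 19.8%). Past both thresholds there were 0 in either direction, against 1.75% and 1.73%, and limma-voom gave 0 as well. Without library 2 of B, C or D there was 1 lower, *Tpi1*. The calls among all genes split into 186 higher and 184 lower as deposited, and 424 and 200 as TPM.

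**Figure D4:**
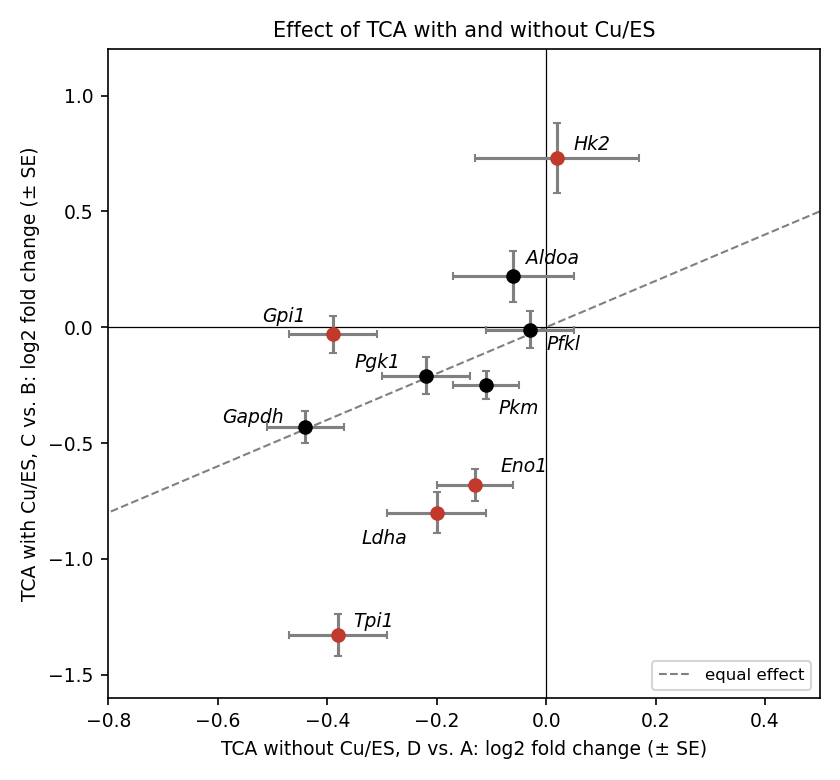
Log2 fold change with TCA in the absence of Cu/ES (horizontal axis, D vs. A) and in its presence (vertical axis, C vs. B), ± SE of the limma fit, for each of the 10 enzymes. Points in red passed the test of the difference and the dashed line marks an equal effect, with *Tpi1*, *Ldha* and *Eno1* below it and *Hk2* and *Gpi1* above.

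Isozymes catalyse the same step from different genes, and their shares within a library do not depend on scaling. Among the phosphofructokinases, *Pfkl* made up 32.9 ± 0.946% of the summed FPKM in A, 6.70 ± 1.04% in B, 5.91 ± 0.426% in C and 38.3 ± 0.303% in D. The platelet-type *Pfkp* took 47.6 ± 1.10% in group A and 72.4 ± 0.974% in group B, on a summed level that went from 236 ± 10.1 to 54.7 ± 2.58 FPKM. *Hk2* made up 37.5 ± 3.95% of the hexokinases in A, 58.2 ± 0.780% in B, 61.8 ± 1.59% in C and 41.9 ± 0.868% in D. *Hk1*, the broadly expressed hexokinase, fell from 63.3 ± 5.04 to 22.2 ± 1.72 FPKM between groups A and B (log2 fold change -1.47). Of the sum of *Aldoa* and *Aldoc*, the latter, best known from brain, made up 95.6 ± 0.987% in group A and 18.3 ± 0.697% in group B, and it fell from 70.8 ± 6.26 to 1.07 ± 0.151 FPKM (log2 fold change -5.11). The share of *Aldoa* thereby went from 4.40 ± 0.987% to 81.7 ± 0.697%, on a sum of 74.0 ± 5.79 and 5.84 ± 0.625 FPKM and with the doubt about *Aldoa* reads given above. *Ldhb*, the heart-type subunit of lactate dehydrogenase, reached at most 0.116 FPKM in any library. *Eno1* made up between 97.4% and 98.6% of the enolases in each group mean.

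**Figure D5:**
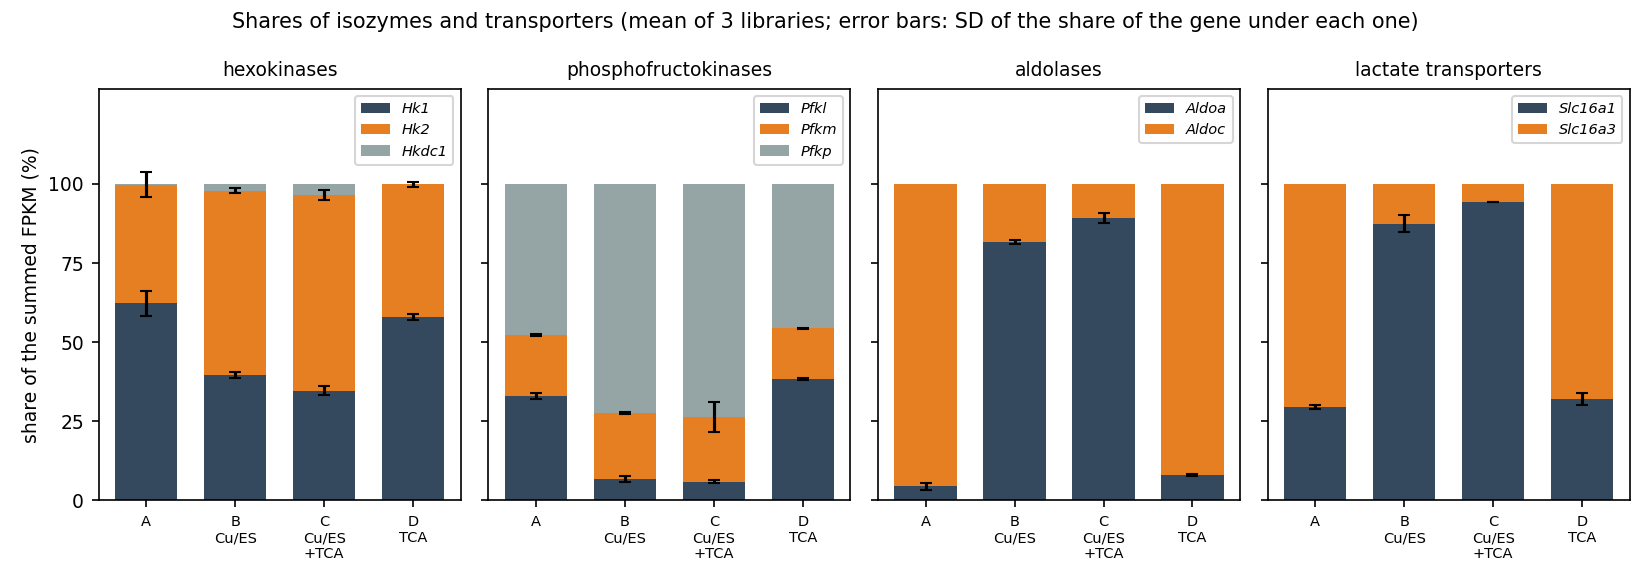
Share of each gene in the summed FPKM of its isozymes or transporters (vertical axis, percent, mean of 3 libraries; error bars are SD of the share of the gene under each one) in the 4 groups. *Pfkl*, *Aldoc* and *Slc16a3* take a smaller share in groups B and C than in groups A and D, and *Hk2* a larger one.

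The related lists are read against all genes tested, of which 53.0% fell and 10.1% rose past both thresholds in group B vs. A. Of the 12 tested genes among the 19 other isozymes and remaining steps, 9 fell past both thresholds and 0 rose, with a median log2 fold change of -1.49. *Pfkm* (-1.91), *Pfkp* (-1.48) and *Pgam5* (-1.49), a mitochondrial phosphatase of the mutase family, were among them, whereas *Pgam1*, the mutase that precedes enolase, went from 226 ± 17.0 to 191 ± 6.54 FPKM (log2 fold change -0.24). Of 7 tested transporter genes 4 fell and 0 rose past both thresholds, close to the shares of all genes. *Slc16a3*, the lactate exporter MCT4, fell from 166 ± 12.7 to 13.0 ± 3.27 FPKM (log2 fold change -3.60) and went from 70.5 ± 0.783% to 12.6 ± 2.74% of the lactate transporters. The glucose transporter *Slc2a1* was at 152 ± 25.7 FPKM in group A, 119.9 ± 7.83 in B, 173 ± 12.3 in C and 152 ± 18.9 in D, and the rise from B to C passed the adjusted p (log2 fold change 0.53). The fructose transporter *Slc2a5* had a log2 fold change of -1.42. Under median-ratio scaling 26.0% of all genes tested were higher and 25.6% lower past both thresholds. The counts then became 3 higher and 4 lower among the isozymes, and 1 higher and 3 lower among the transporters. *Pgam1* (1.04) and *Slc2a1* (0.95) turned higher.

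Among regulators of glycolytic flux and of the entry of pyruvate into mitochondria, 8 of 17 tested genes fell past both thresholds and 2 rose (53.0% and 10.1% of all genes tested). *Pfkfb3* and *Pfkfb4*, which act on phosphofructokinase, were among those that fell. *Pdk1*, a kinase that switches pyruvate dehydrogenase off, fell from 54.0 ± 4.13 to 0.396 ± 0.145 FPKM (log2 fold change -5.30). The pyruvate dehydrogenase subunits parted, with *Pdhb* higher, from 68.5 ± 4.39 to 159 ± 6.71 FPKM (log2 fold change 1.21), and *Pdha1* (-1.86), *Dld* (-1.41) and *Dlat* (-1.12) lower. Under median ratios *Dlat* turned to 0.07, and 5 regulators were higher and 3 lower (26.0% and 25.6% of all genes tested). Of 8 tested pentose phosphate genes, 5 fell and 1 rose past both thresholds, again near the shares of all genes. *Taldo1*, transaldolase, rose from 78.2 ± 4.15 to 407 ± 8.67 FPKM (log2 fold change 2.36), while *G6pdx*, the entry enzyme, fell from 63.6 ± 1.73 to 14.2 ± 1.18 (log2 fold change -2.09). *Pgls* (-1.30) and *Tkt* (-1.02) fell as well. Under median ratios *Tkt* turned to 0.25, with 2 genes higher and 1 lower (26.0% and 25.6% of all genes tested). Of 4 tested gluconeogenesis genes 3 fell past both thresholds, among them the mitochondrial *Pck2* (-3.85) and *G6pc3* (-2.05). Under median ratios 2 of them were lower (25.6% of all genes tested).

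Of 13 tested genes of glycogen metabolism, 11 fell past both thresholds and 1 rose (53.0% and 10.1% of all genes tested). The muscle phosphorylase *Pygm* rose from 0.206 ± 0.150 to 26.4 ± 3.05 FPKM (log2 fold change 4.51), and the brain form *Pygb* fell from 27.7 ± 1.09 to 1.11 ± 0.0841 (log2 fold change -3.76). The synthase *Gys1* (-3.42), glycogenin *Gyg* (-3.10) and phosphoglucomutase *Pgm1* (-2.80) fell. Under median ratios 2 genes were higher and 6 lower (26.0% and 25.6% of all genes tested). Of 14 tested transcription factors of glycolytic genes and their partners, 12 fell and 0 rose past both thresholds, beside the same shares. *Egln3*, an oxygen sensor, fell from 65.9 ± 17.6 to 0.440 ± 0.161 FPKM (log2 fold change -5.50), and *Srebf1* (-3.36), *Arnt* (-2.53), the partner of hypoxia-inducible factors, and *Foxk2* (-1.63) fell too. Under median ratios 1 was higher and 6 lower, beside 26.0% and 25.6% of all genes tested. In group C vs. B a total of 2 genes of these lists passed both thresholds, *Pfkfb4* (1.14), which sets the level of an activator of phosphofructokinase, and *Egln2* (1.11), both higher. As TPM, the number of genes that fell in group B vs. A was the same or higher in each of the 7 lists. Of all genes tested, 63.3% fell past both thresholds as TPM. Within the lists, medians in group C vs. B ran from -0.34 for the pentose phosphate genes to 0.21 for the transporters, against -0.03 for all genes.

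The genes whose pattern over the 12 libraries was most like each member were sought among 4749 genes with a mean of at least 10 FPKM, by the root-mean-square difference of log2(FPKM + 1) from the group A mean. *Pgk1* and *Pkm* had nearly the same pattern, with a difference of 0.07, and *Tufm* stood as near to *Pkm*. *Eno1* was nearest to *Mfge8* (0.09), *Gapdh* to *Clk4* (0.10) and *Ldha* to *Dpm3* (0.10). *Pfkl* was nearest to *Mat2b* (0.13), *Tpi1* to *Mpnd* (0.15) and *Aldoa* to *Sgta* (0.12, among 4750 genes). *Pfkl* and *Tpi1* were each the nearest member to the other, at 0.66, with 251 and 351 genes nearer. For *Ldha* the nearest member was *Gpi1*, at 0.86, with 1878 genes nearer. The patterns share libraries and the fall common to most genes, so these distances describe the 12 libraries only.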

How the data were processed

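The authors deposited FPKM values, one column for each of 12 libraries of polyadenylated RNA. The submitters' processing notes name fastp, HISAT2, HTSeq and the build GRCm39, and the annotation, strand setting and versions are not given in the sources used here. The spacing of the FPKM gave back reads: all 19724 genes with a value in 4 or more libraries came out as whole reads in every library (within 0.02 reads), and totals of 29115011 to 39782142 reads follow from this. Counting error weighs most on *Aldoa*, with 196 to 352 reads a library, and on *Pfkl* with Cu/ES, with 432 to 540. The other member values rest on at least 1696 reads.

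From the FPKM, log2(FPKM + 1) of the 10615 genes with a mean of at least 1 FPKM was fitted with limma 3.58.1 in R 4.3.3, with 4 group means, a mean-variance trend and 8 residual degrees of freedom. Tests were two-sided with Benjamini-Hochberg adjustment, and the step was tested on simulated data. Alternatives were a pseudocount of 0.1, no filter, TPM and median-ratio scaling, a replicate block, the compared groups alone, each library left out, and limma-voom on recovered reads. The replicate block used the numbers of the titles and paired the libraries of all 4 groups. Same-numbered libraries of groups A and B deviated together from the group means in all 3 pairs (r = 0.173, 0.174 and 0.142). For groups A and D the values were r = 0.087, 0.579 and 0.302. Near-identical genes were found with blastn 2.17.0 in GENCODE transcripts of GRCm38, and promoter windows came from RefSeq. Plots were made in Python 3.11.15.

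The members and lists were chosen with earlier results of these data known. Named list genes passed both thresholds in group B vs. A or C vs. B with a mean of at least 10 FPKM, up to 4 per list and direction, besides *Pgam1*, *Slc2a1*, *Slc16a3*, *Ldhb* and *Pdk1* whatever their values. *Hk1*, *Hkdc1*, *Eno2*, *Slc2a8*, *Slc16a1*, *Pdk4*, *Pfkfb3*, *Pfkfb4*, *Apoa1*, *Trf*, *Pecam1*, *Cd68* and *Cdh5* were named after their values were seen. *Pklr* was not analysed here, and the genes nearest in pattern to *Gpi1* and *Hk2* are not reported here.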

Additional observations from a re-analysis of the deposited data

Results flagged for a closer look

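TCA acted differently in cells with Cu/ES than in cells without by the interaction term of limma (adjusted p under 0.05 by Benjamini-Hochberg) for 5 of 10 members. The term was higher in 2 and lower in 3, near the shares of all genes tested (17.7% and 19.8%). It also passed for 45 of 75 tested genes of the 7 related lists, 27 with a higher and 18 with a lower term, against the same shares. These counts were 26 and 13 as TPM and 24 and 19 under median ratios. For the members the term on the log2 scale was 0.70 for *Hk2*, 0.35 for *Gpi1*, -0.94 for *Tpi1*, -0.55 for *Eno1* and -0.60 for *Ldha*. Past both thresholds were 4 list genes with a higher term (1.75% of all genes tested), *Hkdc1* (1.03), *Eno2* (1.09), *Pfkfb4* (1.14) and *Egln3* (1.09), and 0 with a lower one (1.73%).

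Other list genes that passed are given by group, and not all are named. Among other isozymes and the mutases the term was 0.68 for *Hk1*, 0.69 for *Aldoc*, 0.60 for *Pfkm*, 0.49 for *Pfkp*, 0.49 for *Pgam1* and -0.81 for *Pgam5*. The 4 transporters that passed were *Slc2a8* (0.90), *Slc2a5* (0.57), *Slc16a1* (0.56) and *Slc2a1* (0.52). Around pyruvate dehydrogenase it was 0.37 for *Pdhb*, 0.85 for *Pdk1*, 0.40 for *Pdha1*, -0.35 for *Dld* and -0.55 for *Dlat*. The gluconeogenesis genes *Pck2* (-0.34) and *G6pc3* (-0.95) and the pentose phosphate genes *Taldo1* (-0.51), *G6pdx* (-0.80), *Pgls* (-0.53) and *Tkt* (-0.29) had negative terms. *Pygm* (0.71) and *Pgm1* (0.80) of glycogen metabolism and the oxygen sensor *Egln2* (0.90) had positive ones.

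Some of these calls were lost under other settings of limma with Benjamini-Hochberg. As TPM they were *Dld* (adjusted p = 0.0983), *Pck2* (0.0949), *Tkt* (0.0901) and *Pygm* (0.089). By limma-voom they were *Aldoc* (0.53), *Egln3* (0.248) and *Pygm*, whose term turned to -0.17 (0.854). With a pseudocount of 0.1 they were *Aldoc* (0.123) and *Pygm* (0.772), and without a filter *Hk2*, *Gpi1*, *Egln3*, *Pfkp*, *Slc2a1* and *Tkt* (0.0503 to 0.0889). Leaving out 1 library lost *Gpi1*, *Slc2a1*, *Tkt*, *Dld* and *Pck2* in at least 1 case (0.0501 to 0.0845). *Aldoc*, *Pdk1*, *Egln3* and *Slc2a8* stood at or under 1.19 FPKM in every library with Cu/ES, and *Eno2* between 0.939 and 1.68. From group A to D the mean of *Slc2a8* went from 6.39 to 3.54 FPKM and that of *Eno2* from 9.78 to 4.44. In C vs. B their log2 fold changes were 0.21 and 0.09 (adjusted p = 0.175 and 0.677 by limma with Benjamini-Hochberg). Whether the terms of these genes came from their low level with Cu/ES was not tested. Groups of 3 libraries were too small for a test of single outlying libraries.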

How the results depend on the processing

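Past both thresholds, *Pfkl* and *Tpi1* were lower in groups B vs. A and C vs. D, and *Tpi1* in C vs. B, under every alternative run. Of 50 results of the members, 39 kept their direction and side of the threshold as TPM and 32 under median ratios. Under median ratios 6 members were higher in B vs. A (26.0% of all genes tested) and 4 in C vs. D (25.9%), where 0 were as deposited. Signs turned under median ratios in B vs. A for *Hk2* (1.03), *Gpi1* (0.55), *Pgk1* (1.11) and *Pkm* (1.13), and in C vs. D for *Gpi1* (0.87), *Pgk1* (1.10), *Eno1* (0.91) and *Pkm* (0.97). As TPM they turned in B vs. A for *Gapdh* (-0.22) and *Eno1* (-0.17) and in C vs. D for *Gapdh* (-0.13). Values near 0 also turned: C vs. B as TPM for *Gpi1* (0.04) and *Pfkl* (0.06) and under median ratios for *Pfkl* (0.002), D vs. A under median ratios for *Pfkl* (0.01), and the interaction under median ratios for *Pfkl* (-0.01), *Gapdh* (-0.02) and *Pgk1* (-0.02). Calls by limma with Benjamini-Hochberg were lost under median ratios for *Tpi1* in D vs. A (adjusted p = 0.0527, from 3.30e-03 to 0.0527 over all alternatives) and for *Gpi1* in the interaction (0.0526), and as TPM for *Aldoa* in B vs. A (0.222) and *Hk2* in C vs. D (0.227). Calls were gained as TPM for *Hk2* (-0.59, adjusted p = 2.92e-03) and *Pgk1* (-0.54, 2.20e-06) in B vs. A and for *Pgk1* in D vs. A (0.0389) and C vs. D (-0.45, 1.81e-05), by limma-voom for *Pgk1* in B vs. A (0.0473) and D vs. A (0.0484) and *Gapdh* in C vs. D (0.0489), and with the compared groups alone for *Gapdh* (0.0268) and *Pgk1* (0.0469) in B vs. A. A pseudocount of 0.1 gained *Gapdh* in C vs. D (0.0494). Why the scalings differ was not tested.

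All genes past both thresholds numbered 243 in C vs. B, and 703 with a pseudocount of 0.1, 386 as TPM and 780 by limma-voom. In D vs. A the 23 became 95, 59 and 104 in the same order and 15 under median ratios, and in the interaction the 370 became 878, 624 and 874. With each library left out, the members lower in the interaction ran from 0 to 1. Over those fits log2 fold changes ran from -0.10 to 0.01 for *Gpi1* and from -0.05 to 0.07 for *Pfkl* in C vs. B. In D vs. A they ran from -0.18 to 0.12 for *Hk2*, from -0.07 to 0.04 for *Pfkl* and from -0.15 to 0.02 for *Aldoa*. For the interaction they ran from -0.05 to 0.10 for *Pfkl*, from -0.04 to 0.10 for *Gapdh* and from -0.07 to 0.08 for *Pgk1*. Of 600 such results, 558 kept their direction and side of the threshold.

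Libraries of the same replicate number correlated with r from -0.171 to 0.579 (mean 0.125, over 0.1 in 11 of 18 pairs), and 9 of 12 libraries were closest to their own number, a hint of pairing from the data and not from the labels. In groups A and B every pair was over 0.1, and in no other pair of groups was this so. With the replicate number as a block, 45 of 50 results kept their side of the threshold by limma with Benjamini-Hochberg. It gained *Hk2* (-0.22, adjusted p = 0.0335), *Gapdh* (0.15, 0.05 after rounding) and *Pgk1* (-0.17, 0.0458) in B vs. A, *Pgk1* (-0.21, 0.0422) in C vs. B and *Gapdh* (0.16, 0.0398) in C vs. D. The block left the counts of members past both thresholds at 3 lower in B vs. A, 1 in C vs. B and 3 in C vs. D. *Pfkl* with Cu/ES and *Aldoa* in all groups rested on 196 to 540 reads a library, and the other members on at least 1696.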

Other observations

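Some genes beside the 10 enzymes are named here after their values were seen. *Hkdc1*, a hexokinase-like gene, was at 0.179 ± 0.0487 FPKM in group A, 1.25 ± 0.0495 in B, 3.18 ± 0.399 in C and 0.0695 ± 0.0470 in D (mean ± SD, n = 3). It was higher in B vs. A (log2 fold change 0.93) and in C vs. B (0.89) by the adjusted p of limma with Benjamini-Hochberg. *Slc16a1*, the lactate transporter MCT1, was at 69.6 ± 5.91 FPKM in A, 90.2 ± 0.766 in B, 141 ± 0.968 in C and 73.5 ± 2.48 in D. Its log2 fold change was 0.37 in B vs. A, 0.01 as TPM and 1.64 under median ratios, and 0.64 in C vs. B, 0.72 as TPM and 0.65 under median ratios. *Pdk4*, a pyruvate dehydrogenase kinase, was listed at 0 in all 6 libraries without Cu/ES and at 1.91, 4.14 and 1.70 FPKM in B and 1.47, 4.08 and 1.97 in C, with the second library of each of those groups the highest. *Pfkfb4*, by contrast, was 2.44-fold lower in B vs. A, past both thresholds as deposited but not under median ratios (log2 fold change -0.02), and did not pass in C vs. D (0.14, limma with Benjamini-Hochberg, adjusted p = 0.397). It was at 5.31 ± 0.410 FPKM in A, 2.17 ± 0.571 in B, 6.02 ± 1.47 in C and 5.29 ± 0.444 in D.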
